A study of Mus musculus with 12 samples.

Results

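The cyclin-dependent kinase (CDK) inhibitors and the D-type cyclins set the threshold at which a cell leaves the G1 phase, and 10 of these genes were followed among the 78317 genes of the table. They were taken by gene symbol alone, and each symbol had a single identifier. They comprised 3 CIP/KIP inhibitors (Cdkn1a, Cdkn1b and Cdkn1c), 4 INK4 inhibitors (Cdkn2a, Cdkn2b, Cdkn2c and Cdkn2d) and 3 D cyclins (Ccnd1, Ccnd2 and Ccnd3). In these cells 7 of the 10 were counted in all 12 libraries, and Cdkn1c, Cdkn2a and Cdkn2b were not.

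RNA came from 4T1, a mouse mammary carcinoma line described as triple negative. There were 4 groups of 3 biological replicates: control and PBRM1 KO cells (KO cells in what follows), each without treatment or with 5 ng/ml TGFβ1 for 4 days. PBRM1 is a bromodomain subunit of the PBAF chromatin remodelling complex. The library names carry sgCt for control and sgPB for KO cells, which may stand for a control guide RNA and a Pbrm1 guide RNA. The sources used here do not explain these letters, and do not give whether the KO line is 1 clone or where Pbrm1 was edited. Each value is a count of deduplicated 3′ ends per gene, and CPM is the usual scaling of that count by the library total. All 4 groups share the parental line and medium, and the time label of the untreated cells is 0 h, so treatment and days in culture cannot be told apart.

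TGFβ is known to stop many epithelial cells in G1, through SMAD2, SMAD3 and SMAD4. In the textbook model it raises the INK4 inhibitor p15, encoded by Cdkn2b, and the CIP/KIP inhibitor p21, encoded by Cdkn1a, while MYC and the Id proteins fall. INK4 proteins bind CDK4 and CDK6 and keep D cyclins from activating them, whereas CIP/KIP proteins act mainly on CDK2 complexes. D cyclins with CDK4 or CDK6 phosphorylate the retinoblastoma protein and release E2F factors. Carcinoma cells often lose parts of this arrest, commonly by deletion or silencing of the Cdkn2a and Cdkn2b locus.

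Promoters of 3 of the genes are shown because the results turn on them: Cdkn1a, which rose with TGFβ1 in both genotypes, Cdkn2c, which fell in KO cells, and Cdkn2b, the textbook TGFβ target, which was close to uncounted here. The stretches are the 250 bases before an annotated start, cut to the longest part outside annotated untranslated regions (UTRs). Starts and bases come from RefSeq on build GRCm38.p6, whereas the files use mm39. The second Cdkn1a window and the Cdkn2c window shown lie downstream of another listed start, so their bases may be transcribed from it. Capitals mark GTCT, the core letters of a SMAD binding element, and GGGCGG, the GC box bound by SP1, on either strand. RefSeq lists more than 1 start for Cdkn1a and Cdkn2c, and 3′ end counts do not tell which was used. The windows lie at chr17:29090729-29090978 and chr17:29093519-29093768 (plus strand, Cdkn1a), chr4:109665373-109665609 (minus strand, Cdkn2c) and chr4:89311040-89311282 (minus strand, Cdkn2b).
Cdkn1a first window: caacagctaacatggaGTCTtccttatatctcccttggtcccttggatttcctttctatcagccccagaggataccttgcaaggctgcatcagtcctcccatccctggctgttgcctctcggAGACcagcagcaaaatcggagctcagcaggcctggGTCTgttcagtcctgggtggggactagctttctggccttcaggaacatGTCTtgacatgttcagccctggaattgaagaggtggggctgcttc
Cdkn1a second window: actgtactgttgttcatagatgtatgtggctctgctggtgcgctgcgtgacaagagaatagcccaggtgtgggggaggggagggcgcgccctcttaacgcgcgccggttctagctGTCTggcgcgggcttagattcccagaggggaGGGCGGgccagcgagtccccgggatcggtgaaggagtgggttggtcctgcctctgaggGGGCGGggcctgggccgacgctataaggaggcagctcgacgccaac
Cdkn2c: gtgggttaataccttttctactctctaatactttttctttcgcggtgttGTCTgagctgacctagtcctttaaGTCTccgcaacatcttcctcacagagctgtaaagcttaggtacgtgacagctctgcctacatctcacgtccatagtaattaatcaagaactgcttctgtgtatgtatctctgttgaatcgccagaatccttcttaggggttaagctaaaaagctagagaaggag
Cdkn2b: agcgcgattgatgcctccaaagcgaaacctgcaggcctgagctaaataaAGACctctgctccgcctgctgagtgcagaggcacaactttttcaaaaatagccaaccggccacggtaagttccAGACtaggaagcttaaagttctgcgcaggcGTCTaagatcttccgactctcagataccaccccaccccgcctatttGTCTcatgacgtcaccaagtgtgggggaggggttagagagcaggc

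The first Cdkn1a window held 4 GTCT matches and 0 GC boxes. The second held 2 GC boxes, beginning 104 and 46 bases before the start, and 1 GTCT match at 135 bases before it. The printed Cdkn2c window held 2 GTCT matches and the printed part of the Cdkn2b window 4, both without a GC box. The second Cdkn2c window lies wholly in annotated UTR and is not printed. It held 3 GC boxes, beginning 95, 51 and 40 bases before the start, and 1 GTCT match at 175 bases before it. Such matches are common: GTCT was in 82.9% and GGGCGG in 32.7% of 32817 windows of 250 bases over all genes. The full palindrome GTCTAGAC was in 0.168% of all windows and in 0 of the 11 windows of the 7 genes found in the table (Cdkn1a, Cdkn1b, Cdkn2a, Cdkn2b, Cdkn2c, Cdkn2d and Ccnd3). The E2F letters TTTCCCGC were in 0.893% of all windows and in 1 of these 11, the upstream start of Cdkn2a. A match is a run of letters and no measure of binding.

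Library totals ran from 9265693 to 11250850 counts, and 14012 genes passed the filter on low counts and were tested. Both TGFβ1 replicate 3 libraries stood apart from replicates 1 and 2. Libraries were placed on an axis, built without the 10 genes, that has the untreated mean at 0 and the size of the other genotype's TGFβ1 response (replicates 1 and 2) at 1. Replicate 3 was at 0.314 (control) and 0.393 (KO), replicates 1 and 2 at 0.807 and 0.856 (control) and 0.952 and 0.925 (KO), and untreated libraries ran from −0.0325 to 0.0629. Results that rest on replicate 3 are given with and without both of these libraries. The libraries were singled out by their values in the same data, not by a label. Leaving them out took the share of all genes called from 8.81 to 24.1% in control and from 11.4 to 28.1% in KO cells. Adjusted p values of that fit are therefore a description and no independent support. Pbrm1 averaged 282 CPM in untreated control and 225 CPM in untreated KO cells and was not called in either genotype comparison, and 3′ end counts are no check of the edit or of the protein.

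As a check of the label, 7 of 8 epithelial markers averaged at least 1 CPM, and their sum ran from 2143 to 3034 CPM across the 12 libraries. Leukocyte markers summed to between 6.51 and 10.4 CPM, with 2 of 9 at 1 CPM or more and Ptprc, the pan-leukocyte antigen, at 6 reads over all libraries. None of 6 endothelial markers reached 1 CPM, and their sum was 0.0921 to 1.38 CPM. Of 8 fibroblast markers 6 reached 1 CPM. Their sum was 35.6 to 50.7 CPM in untreated control libraries, 34.4 to 110 CPM in control libraries with TGFβ1, 28.9 to 39.8 CPM in untreated KO libraries and 30.3 to 65.5 CPM in KO libraries with TGFβ1. No marker list was at 0 in full. With TGFβ1, 4 of 7 tested epithelial markers fell in control and 3 in KO cells, and 0 rose. Krt19, a keratin, fell by log2 −1.05 ± 0.15 in control (edgeR adjusted p = 0.00136) and −0.80 ± 0.15 in KO cells (adjusted p = 0.00522). Cdh1, the adhesion protein E-cadherin, fell by −0.75 ± 0.12 (adjusted p = 0.00222) and −0.59 ± 0.12 (adjusted p = 0.00738). Of 6 tested fibroblast markers 0 were called in control and 1 rose in KO cells: Pdgfrb, a receptor for PDGF, from 4, 1 and 0 reads in the untreated libraries to 89, 62 and 15 reads with TGFβ1 (adjusted p = 0.00529). When both replicate 3 libraries were left out, 2 epithelial markers rose and 4 fell in control, 3 rose and 4 fell in KO cells, and 2 fibroblast markers rose in each. Of 2 tested leukocyte markers 0 were called. The part of these genes in the results for the inhibitors and cyclins was not tested. In bulk RNA fewer cells of a kind and less RNA per cell cannot be told apart.

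Among the CIP/KIP inhibitors, Cdkn1a (p21), which binds and blocks CDK2 complexes, was low in untreated cells and higher with TGFβ1 in both genotypes. Untreated control libraries held 12.1, 13.3 and 14.9 CPM, and control libraries with TGFβ1 held 28.7, 25.4 and 18.8 CPM in replicates 1, 2 and 3. In KO cells the untreated values were 8.29, 11.6 and 13.8 CPM and the treated ones 31.7, 31.7 and 16.0 CPM. Every treated library lay above every untreated library of its genotype, and replicate 3 was the lowest treated library in both.

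Cdkn1a rose 1.81-fold in control cells (log2 0.85 ± 0.25, SE, edgeR quasi-likelihood adjusted p = 0.0497, n = 3 per group). In KO cells it rose 2.33-fold (log2 1.22 ± 0.25, adjusted p = 0.00802). The call in KO cells held in 17 of 17 alternative analyses, with log2 1.02 to 1.48. In control cells it held in 8 of 17, with adjusted p from 1.65e-06 to 0.168. It was lost when any of the 3 untreated control libraries, or control TGFβ1 replicate 1 or 2, was left out, and kept without control TGFβ1 replicate 3 (adjusted p = 0.0159). Without both replicate 3 libraries the changes were log2 1.00 ± 0.16 in control (adjusted p = 0.000385) and 1.48 ± 0.16 in KO cells (adjusted p = 7.6e-06).

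Cdkn1b (p27), the inhibitor that accumulates in resting cells and is removed by the SCF-SKP2 ubiquitin ligase, had similar values in the 4 groups. It averaged 31.1 ± 3.91 CPM in untreated control cells, 31.8 ± 6.83 with TGFβ1, 34.1 ± 2.85 in untreated KO cells and 32.3 ± 6.32 with TGFβ1 (mean ± SD, n = 3). The groups overlapped, and the TGFβ1 difference was log2 0.03 ± 0.16 in control (edgeR adjusted p = 0.931) and −0.09 ± 0.16 in KO cells (adjusted p = 0.763). Within both TGFβ1 groups replicate 3 was the lowest, at 24.0 CPM in control and 27.1 CPM in KO cells, and in the untreated groups replicate 3 was also the lowest, at 28.1 and 31.7 CPM.

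Cdkn1c (p57), an imprinted inhibitor expressed from the maternal copy in many tissues, had 4 reads in all 12 libraries. Untreated KO replicate 2 held 2 of them and KO TGFβ1 replicate 2 the other 2. The limit that a count of 0 allows was 0.267 to 0.324 CPM per library, so Cdkn1c was at or near this limit and no fold was computed. Genes of the same imprinted cluster were counted: Kcnq1ot1, the long non-coding RNA of the cluster, averaged 83.3, 105, 81.4 and 90.4 CPM in untreated control, TGFβ1 control, untreated KO and TGFβ1 KO cells. Phlda2, a restrainer of placental growth, averaged 73.3, 52.6, 79.7 and 47.8 CPM in the same order, and over all libraries neither passed the test of TGFβ1 in either genotype (edgeR adjusted p = 0.0581 to 0.408). The call depended on the fit. In KO cells Phlda2 was at log2 −0.74 ± 0.24 over all libraries (adjusted p = 0.0609), passed with the replicate block at −0.78 ± 0.17 (adjusted p = 0.00605) and passed without both replicate 3 libraries at −1.08 ± 0.12 (adjusted p = 6.32e-06). In control cells it passed without those libraries, at −0.80 ± 0.12 (adjusted p = 0.000129). Kcnq1ot1 was at 0.33 ± 0.10 in control cells, and passed with the block (adjusted p = 0.0334) and without those libraries (0.35 ± 0.11, adjusted p = 0.0329). Nap1l4, Cars1, Tssc4 and Cd81 were also tested and not called over all libraries. In the fit without both replicate 3 libraries Cars1 fell in control cells (log2 −0.33 ± 0.11, adjusted p = 0.0347), and Cd81 rose in control (0.30 ± 0.10, adjusted p = 0.0358) and KO cells (0.28 ± 0.10, adjusted p = 0.0415). Slc22a18 averaged 1.38 CPM, Kcnq1 0.391 CPM in untreated control cells and Ascl2 had 1 read in all.

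Cdkn2c (p18) was the most abundant of the INK4 inhibitors by 3′ end counts. Its values were 233, 231 and 243 CPM in untreated control libraries and 166, 181 and 224 CPM with TGFβ1. Untreated KO libraries held 236, 253 and 256 CPM, and treated ones 153, 158 and 199 CPM. In each genotype all treated libraries lay below all untreated ones, with replicate 3 nearest to the untreated level.

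In KO cells Cdkn2c fell to 0.679 of the untreated level (log2 −0.56 ± 0.13, edgeR adjusted p = 0.0129, n = 3 per group), and to log2 −0.57 with the replicate number as a block. That call held in 15 of 17 alternatives and was lost without KO TGFβ1 replicate 1 (adjusted p = 0.0716) or replicate 2 (adjusted p = 0.0702). In control cells the difference was log2 −0.31 ± 0.13 and did not pass (adjusted p = 0.144). Without both replicate 3 libraries it passed there, at log2 −0.45 ± 0.08 (adjusted p = 0.00111). The interaction, which tests whether the TGFβ1 response differs between genotypes, was log2 −0.25 ± 0.18 for Cdkn2c (adjusted p = 1.00).

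Cdkn2d (p19 of the INK4 family) averaged 27.1 ± 2.28 CPM in untreated control cells and 24.4 ± 2.96 with TGFβ1, and 25.2 ± 1.52 and 23.1 ± 0.468 in KO cells (mean ± SD, n = 3). Control groups overlapped. The KO groups did not, with 24.0 to 26.9 CPM untreated and 22.7 to 23.6 CPM treated, yet the difference was log2 −0.14 ± 0.11 and did not pass (edgeR adjusted p = 0.431).

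The other pair of INK4 genes lie side by side on chromosome 4 and were all but uncounted. Cdkn2a, whose alternative starts give p16 and the MDM2 inhibitor ARF, had 1 read in 12 libraries, in untreated control replicate 1. Cdkn2b (p15) had 2 reads, both in control TGFβ1 replicate 2. A 3′ end count cannot tell the 2 products of Cdkn2a apart. Their neighbours in the RefSeq gene order are Mtap on one side and Dmrta1 on the other. Mtap, which recycles methylthioadenosine, was counted at 262 to 290 CPM in untreated control libraries and 315 to 331 CPM with TGFβ1. It held 276 to 286 CPM in untreated KO libraries and 330 to 341 CPM with TGFβ1. It rose by log2 0.24 ± 0.07 in control (edgeR adjusted p = 0.0444) and 0.25 ± 0.07 in KO cells (adjusted p = 0.0307). The rise in control cells did not pass without both replicate 3 libraries, at log2 0.21, and held in 7 of 17 alternatives, against 10 of 17 in KO cells. Dmrta1 had 1 read in all libraries and Elavl2, farther along, had 8, 7, 5 and 2 reads in the 4 groups. Counts of RNA do not show whether the DNA of the locus is present.

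Ccnd1, the D cyclin most often amplified in breast carcinoma, was the most abundant of the 10 genes by 3′ end counts. Untreated control libraries held 1502, 1397 and 1491 CPM and treated ones 1148, 1192 and 1605 CPM. Without TGFβ1 the KO libraries held 1824, 1433 and 1777 CPM, and with it 1282, 1146 and 1542 CPM. In both genotypes replicates 1 and 2 with TGFβ1 were below all untreated libraries, while replicate 3 was above at least 1 of them.

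Ccnd1 did not pass the test of TGFβ1 over all libraries, at log2 −0.15 ± 0.14 in control (edgeR adjusted p = 0.546) and −0.35 ± 0.14 in KO cells (adjusted p = 0.133). With the replicate number as a block it passed in KO cells (log2 −0.36, adjusted p = 0.0156). Without both replicate 3 libraries Ccnd1 passed in both, at log2 −0.33 ± 0.10 in control (adjusted p = 0.0239) and −0.49 ± 0.10 in KO cells (adjusted p = 0.00184). Measured from the untreated mean of its own genotype, replicates 1, 2 and 3 stood at log2 −0.36, −0.31 and 0.15 in control and −0.42, −0.55 and −0.10 in KO cells. The sign of the control difference in replicate 3 was thus opposite to that of replicates 1 and 2.

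Ccnd2 held 213, 172 and 131 CPM in untreated control libraries and 115, 103 and 136 CPM with TGFβ1. In KO cells untreated libraries held 218, 170.1 and 153 CPM and treated ones 153, 122 and 129.7 CPM. Control groups overlapped at untreated replicate 3, which was the lowest untreated library. The difference was log2 −0.54 ± 0.17 in control (edgeR adjusted p = 0.0654) and −0.43 ± 0.17 in KO cells (adjusted p = 0.118), so neither passed. Ccnd2 passed in KO cells with the replicate block (log2 −0.43, adjusted p = 0.0409). It passed in control cells without both TGFβ1 replicate 3 libraries (log2 −0.67 ± 0.17, adjusted p = 0.0116) and without untreated replicate 3 (log2 −0.71, adjusted p = 0.0336).

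Ccnd3 was the least abundant D cyclin, at 32.5 ± 2.69 CPM in untreated control and 27.9 ± 0.832 CPM in treated control cells, and 30.6 ± 2.77 and 25.5 ± 1.06 CPM in KO cells (mean ± SD, n = 3). Treated libraries lay below untreated ones in both genotypes without overlap, by narrow gaps. The differences were log2 −0.22 ± 0.10 in control (edgeR adjusted p = 0.182) and −0.27 ± 0.10 in KO cells (adjusted p = 0.0959), and neither passed. With the replicate block the second had an adjusted p of 0.052.

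**Figure D1:**
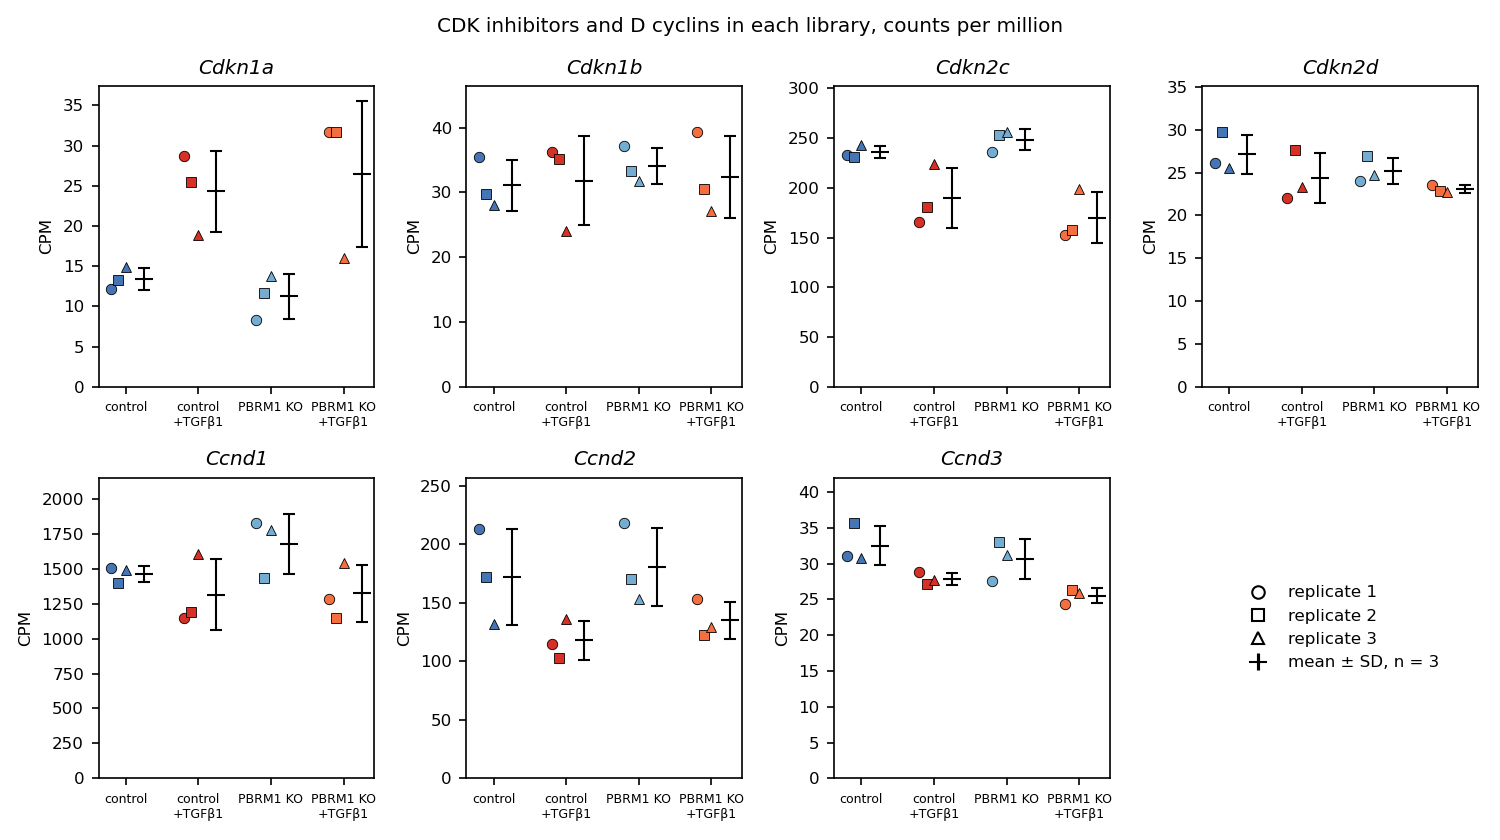
CPM (y axis, linear, from 0) of the 7 counted genes in each library, by group (x axis), with replicates 1 to 3 as circles, squares and triangles and the mean ± SD (n = 3) as a bar beside them. Cdkn1a with TGFβ1 is above untreated in both genotypes with replicate 3 lowest (18.8 and 16.0 CPM), and Ccnd1 replicate 3 with TGFβ1 (1605 and 1542 CPM) lies above replicates 1 and 2.

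Of the 7 tested genes, 1 was higher and 0 lower with TGFβ1 in control cells at adjusted p below 0.05, where 8.81% of all 14012 tested genes were called (5.89% higher, 2.91% lower). In KO cells 1 was higher and 1 lower, where 11.4% of all genes were called (7.65% higher, 3.72% lower). With 7 genes tested, 1 or 2 calls are too few to be read against these shares. The median log2 fold change of the 7 was −0.16 in control and −0.27 in KO cells, against 0.00 and −0.00 over all tested genes. CPM ranges of treated and untreated libraries did not overlap for 3 of the 7 in control cells, where this held for 26.2% of all genes, and for 5 of the 7 in KO cells, where it held for 29.9%. The 3 were Cdkn1a, Cdkn2c and Ccnd3, and the 5 were these with Cdkn2d and Ccnd2.

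With the replicate block, 4 of the 7 were called in KO cells (Cdkn1a higher and Cdkn2c, Ccnd1 and Ccnd2 lower), where 19.8% of all genes were. Without both TGFβ1 replicate 3 libraries 4 of the 7 were called in control cells (Cdkn1a higher and Cdkn2c, Ccnd1 and Ccnd2 lower), where 24.1% of all genes were called. In KO cells 3 were then called (Cdkn1a, Cdkn2c and Ccnd1), where 28.1% were. The 2 TGFβ1 comparisons share no library, and replicate 3 stands apart in both.

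The genotype had no called effect on these genes. In untreated cells 0 of 7 were called between KO and control, where 0.278% of all genes were (0.0428% higher, 0.236% lower), with differences from log2 −0.26 ± 0.26 for Cdkn1a to 0.20 ± 0.14 for Ccnd1 (edgeR adjusted p from 0.889 to 0.987). With TGFβ1 0 of 7 were called, where 0.271% of all genes were (0.0714% higher, 0.2% lower), with differences from −0.17 ± 0.13 for Cdkn2c to 0.18 ± 0.17 for Ccnd2 (adjusted p from 0.776 to 0.998). CPM ranges did not overlap for 0 of 7 genes untreated, where 15.7% of all genes did not, and for 1 with TGFβ1, where 11.9% did not. That gene was Ccnd3, at 27.2 to 28.8 CPM in control and 24.3 to 26.3 CPM in KO cells. None of the 7 had an unadjusted p below 0.05 in either genotype comparison, against 1065 and 1194 of all genes, and DESeq2 and limma-voom also called 0 of the 7 in both.

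The interaction of genotype and TGFβ1 was called for 0 of the 7 and for 0% of all 14012 genes by edgeR. It was largest for Cdkn1a, at log2 0.37 ± 0.35, and Cdkn2c, at −0.25 ± 0.18, and the other 5 lay between −0.20 ± 0.20 for Ccnd1 and 0.11 ± 0.24 for Ccnd2. Adjusted p was 1.00 for each, 0 of the 7 and 247 of all genes had an unadjusted p below 0.05, and DESeq2 and limma-voom called 0 of the 7. The larger Cdkn1a rise and the Cdkn2c call in KO cells are therefore not shown to differ from control cells.

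**Figure D2:**
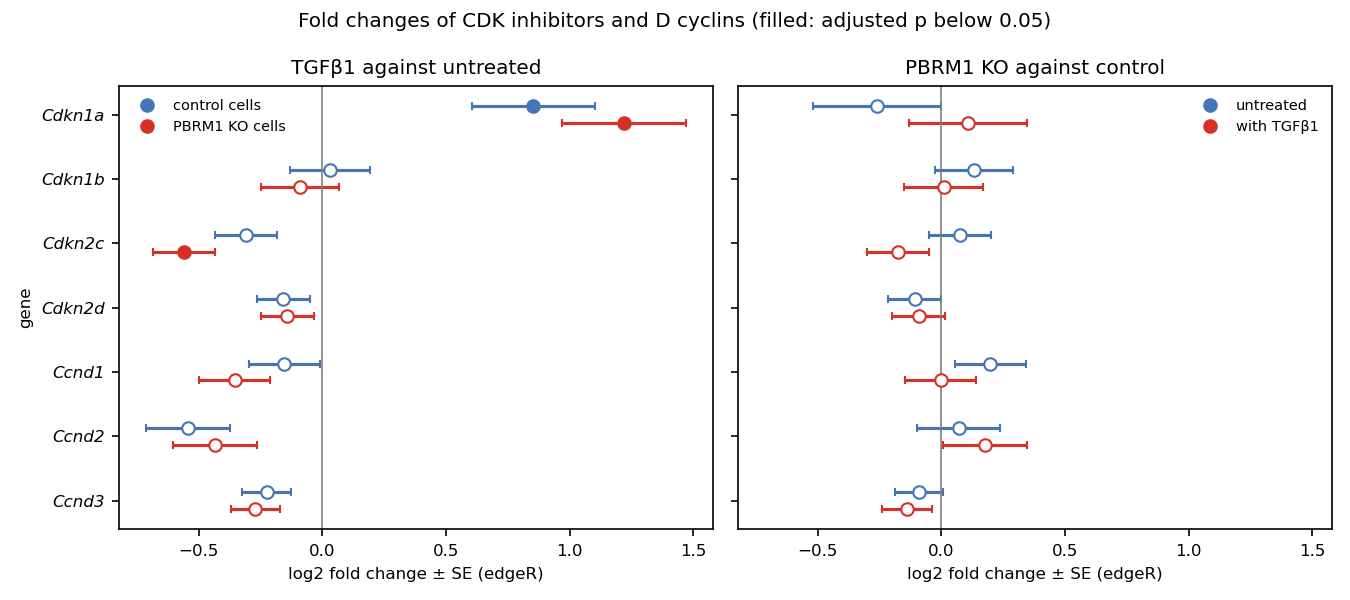
Log2 fold change (x axis) ± SE of the 7 tested genes (y axis) for TGFβ1 against untreated (left panel) and KO against control (right panel), with filled points at adjusted p below 0.05. Filled points are Cdkn1a in both genotypes (0.85 and 1.22) and Cdkn2c in KO cells (−0.56), and every point of the right panel is open.

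For the 2 genes called with TGFβ1, replicate 3 lay nearer to the untreated level than replicates 1 and 2 in both genotypes. From the untreated mean of the same genotype, Cdkn1a stood at log2 1.08, 0.90 and 0.50 in control replicates 1, 2 and 3 and at 1.48, 1.50 and 0.54 in KO replicates. Cdkn2c stood at −0.51, −0.40 and −0.06 in control and −0.74, −0.66 and −0.31 in KO cells. For both genes replicate 3 thus lay in the direction of the others and less far, as its position on the TGFβ1 axis did. For Cdkn2c in control cells its −0.06 was close to the SD of the untreated libraries, 0.056. Ccnd1, which was not called, also had replicate 3 nearest to the untreated level in both genotypes. It stood at −0.36, −0.31 and 0.15 in control, where replicate 3 had the opposite sign, and at −0.42, −0.55 and −0.10 in KO cells. Ccnd3 had no such order, at −0.18, −0.26 and −0.22 in control and −0.36, −0.22 and −0.22 in KO cells. Neither had Cdkn1b, at 0.22, 0.17 and −0.35 in control and 0.17, −0.16 and −0.32 in KO cells. Cdkn2d also lacked it, at −0.30, 0.02 and −0.20 in control and −0.13, −0.15 and −0.14 in KO cells. Ccnd2 had it in control (−0.56, −0.72 and −0.30) and not in KO cells (−0.26, −0.56 and −0.45). Whether replicate 3 differed in dose, time or handling was not tested.

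**Figure D3:**
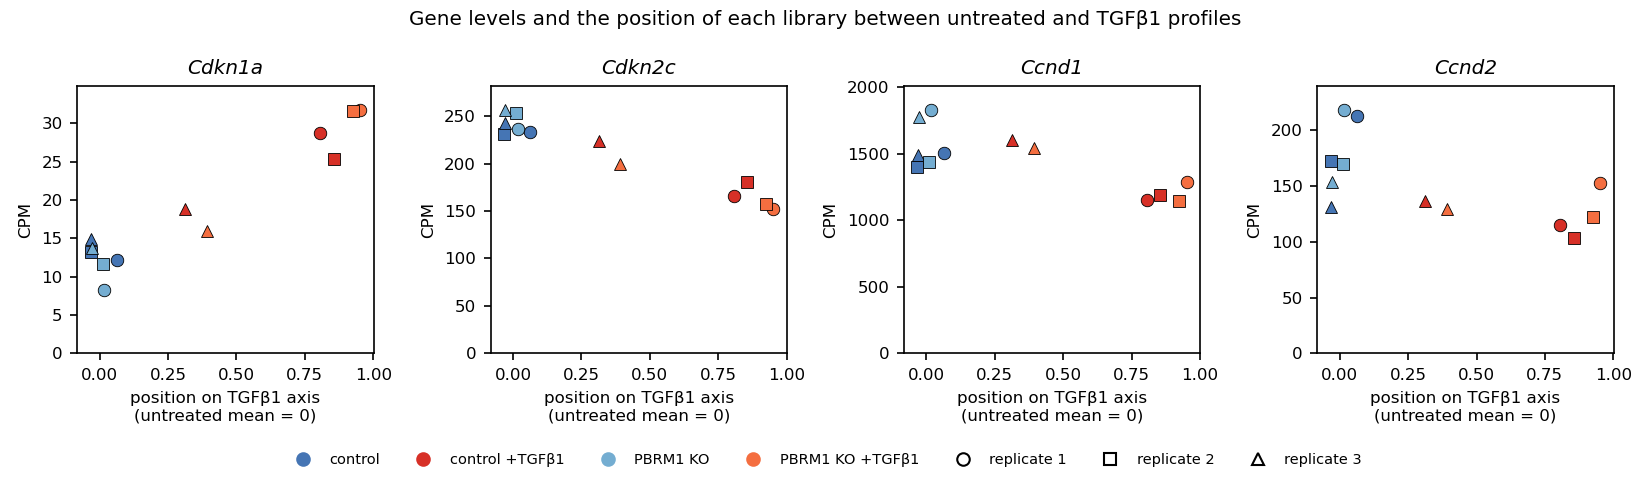
CPM of Cdkn1a, Cdkn2c, Ccnd1 and Ccnd2 (y axes, from 0) against the position of each library on the TGFβ1 axis (x axis, no unit, untreated mean at 0), by group colour and replicate shape. The 2 TGFβ1 replicate 3 libraries sit at 0.314 and 0.393, between the untreated libraries and TGFβ1 replicates 1 and 2 (0.807 to 0.952).

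By 3′ end counts the order of the 7 genes in untreated control cells was Ccnd1, Cdkn2c, Ccnd2, Ccnd3, Cdkn1b, Cdkn2d and Cdkn1a. Such counts take 1 end of each molecule, and no scaling by transcript length was applied. Cdkn2c (231 to 243 CPM) lay above Ccnd2 (131 to 213 CPM), whereas Ccnd3 (30.8 to 35.6 CPM), Cdkn1b (28.1 to 35.5 CPM) and Cdkn2d (25.5 to 29.8 CPM) overlapped with their neighbours. Cdkn1a was the lowest, at 12.1 to 14.9 CPM. With TGFβ1 it overlapped Cdkn2d in both genotypes, and its mean in KO cells was higher, 26.5 ± 9.06 against 23.1 ± 0.468 CPM. Its KO replicate 3, at 16.0 CPM, lay below every treated KO value of Cdkn2d.

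Ccnd1 gave most of the D cyclin counts in every library. Its share was 87.8 ± 2.17% in untreated control and 89.9 ± 0.953% in treated control cells, and 88.8 ± 1.59% and 89.1 ± 1.56% in KO cells (mean ± SD, n = 3). Ccnd2 took 10.3, 8.13, 9.58 and 9.18% in the same order and Ccnd3 1.96, 1.95, 1.65 and 1.74%. The Ccnd1 share differed by 2.16 percentage points with TGFβ1 in control cells (exact two-sided permutation p = 0.3) and by 0.305 points in KO cells (exact p = 0.7). Between genotypes it differed by 1.02 points untreated and by −0.841 points with TGFβ1, KO minus control (exact permutation p = 0.5 for both). Leaving out 1 library at a time moved the TGFβ1 difference in control cells from 1.30 to 3.38 points, the untreated genotype difference from 0.113 to 2.23 and that with TGFβ1 from −1.72 to −0.235. Adjusted over the 4 comparisons, p was 0.667 to 0.7, and 3 against 3 libraries cannot give less than 0.1.

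The division of D cyclin counts set replicate 3 at the same end of each group, while replicates 1 and 2 had no constant order. Replicate 3 had the highest Ccnd1 share in each of the 4 groups, at 90.2 and 90.7% in control cells without and with TGFβ1 and 90.6 and 90.8% in KO cells. It had the lowest Ccnd2 share in each, at 7.95, 7.70, 7.82 and 7.64%, against 7.79 to 12.2% in replicates 1 and 2. This order was noticed after the values were seen and carries no test.

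**Figure D4:**
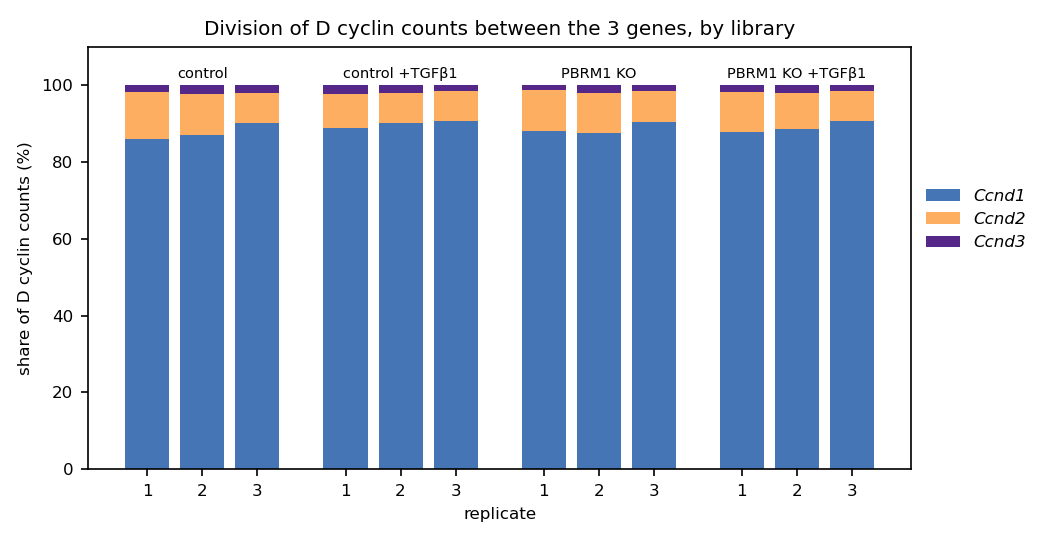
Share of D cyclin counts (y axis, percent, from 0) held by Ccnd1, Ccnd2 and Ccnd3 in each of the 12 libraries (x axis, replicate number within each group). Ccnd1 takes between 86.0 and 90.8% in every library, and replicate 3 has the highest Ccnd1 share of its group.

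Other genes of the G1 checkpoint mostly did not pass the test of TGFβ1. Counts in the lists below stand beside shares over all 14012 genes, 8.81% called in control and 11.4% in KO cells. With the block 19.8% were called in KO cells, and without both replicate 3 libraries 24.1% in control and 28.1% in KO cells. Of 12 tested G1 kinases and their cyclins 0 were called in control and 1 fell in KO cells, Ccna2, the S phase cyclin A2, by log2 −0.50 ± 0.12 (edgeR adjusted p = 0.0157). With the replicate block 2 fell there, and without both replicate 3 libraries 3 fell in control and 4 in KO cells. The median of this list was log2 −0.08 in control and −0.12 in KO cells. Of 19 retinoblastoma family, E2F and DREAM complex genes 0 were called in control and 1 fell in KO cells, Lin54, a DNA-binding DREAM subunit, by −0.44 ± 0.12 (adjusted p = 0.0389). The block gave 1 rise and 5 falls there, and leaving out both replicate 3 libraries gave 1 rise and 4 falls in control and 1 and 7 in KO cells, with main medians of −0.08 and −0.18.

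Cdkn1a is a p53 target, and p53 with 20 other targets (21 tested genes) gave 0 calls in both genotypes, with medians of log2 0.20 in control and 0.12 in KO cells. With the block 5 of the 21 rose in KO cells and 0 fell, where 1682 of all 14012 genes were called higher and 1098 lower. Without both replicate 3 libraries 8 rose and 0 fell in control cells and 9 rose and 0 fell in KO cells. Of all 14012 genes 1962 were then called higher in control and 2252 in KO cells, and the list medians were log2 0.13 and 0.19. Single members of this list ran from −0.28 to 1.07 in control and from −0.33 to 1.20 in KO cells over all libraries.

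Among 18 transcription factors that act on the arrest genes, Foxo1, a FOXO factor that partners SMADs at Cdkn1a in the textbook model, rose by log2 1.01 ± 0.26 in control (edgeR adjusted p = 0.028) and 1.31 ± 0.26 in KO cells (adjusted p = 0.00592). Its values were 30.1, 21.9 and 21.4 CPM in untreated control libraries and 62.1, 53.9 and 32.5 CPM with TGFβ1, and 24.2, 23.5 and 20.3 CPM against 72.0, 64.2 and 35.0 CPM in KO cells. Replicate 3 was again the lowest treated library of each genotype. Id2, which blocks helix-loop-helix factors, fell by 0.77 ± 0.19 in control (adjusted p = 0.0269) and by 1.44 ± 0.19 in KO cells (adjusted p = 0.000609). Id1, of the same family, was at −0.14 ± 0.16 in control (adjusted p = 0.627) and fell by 1.11 ± 0.16 in KO cells (adjusted p = 0.000955).

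Id1 values were 27.3, 32.2 and 33.7 CPM in untreated control and 27.1, 33.6 and 24.2 CPM in treated control libraries, which overlapped. In KO cells the untreated values were 36.1, 30.2 and 43.0 CPM and the treated ones 16.7, 15.1 and 19.0 CPM, without overlap. The interaction was called for 0 genes over all libraries, and without the filter on low counts it passed for Id1, at log2 −0.98 ± 0.19 (edgeR adjusted p = 0.00144). With TGFβ1, Id1 in KO minus control cells was log2 −0.75 ± 0.16, which did not pass (adjusted p = 0.092). It passed in 4 of 17 alternatives: with the replicate block (−0.75 ± 0.15, adjusted p = 0.0338), without both replicate 3 libraries (−0.95 ± 0.18, adjusted p = 0.0262), with DESeq2 (adjusted p = 0.0085) and without that filter (adjusted p = 9.4e-05). In this list 1 gene rose and 1 fell in control and 1 rose and 2 fell in KO cells, 2 and 4 with the block. Without both replicate 3 libraries the counts were 1 and 1 in control and 2 and 3 in KO cells. Its medians were −0.01 in both genotypes. Myc, the MYC gene itself, which represses Cdkn1a and Cdkn2b in the textbook model, was at log2 0.02 ± 0.25 in control (adjusted p = 0.966) and −0.12 ± 0.25 in KO cells (adjusted p = 0.802). It falls outside the rule for named genes and was named after its values were seen.

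Of 19 genes for turnover of CDK inhibitors and cyclins 0 were called in control and 1 fell in KO cells: Skp2, the receptor that delivers p27 to the proteasome, by log2 −0.39 ± 0.11 (edgeR adjusted p = 0.039). Skp2 held 90.7, 78.4 and 84.0 CPM in untreated KO libraries and 59.9, 62.1 and 73.2 CPM with TGFβ1, without overlap. The block gave 3 falls in KO cells, and leaving out both replicate 3 libraries gave 1 rise and 2 falls in control and 3 falls in KO cells, with main medians of −0.01 and −0.03. Of 14 Polycomb and related chromatin genes that act on the Cdkn2a and Cdkn2b locus in many cells, to silence or to open it, 0 were called in control. In KO cells Ezh1, a histone H3 methyltransferase, rose by 0.53 ± 0.16 (adjusted p = 0.0492) and Cbx7, a reader of its mark, fell by log2 −0.88 ± 0.26 (adjusted p = 0.0464). The Ezh1 call held in 5 of 16 alternatives and was lost with DESeq2, limma-voom, RLE scaling, library totals only and without any 1 of 5 KO libraries, among others, and the Cbx7 call held in 10 of 16. The block also gave 1 rise and 1 fall, leaving out both replicate 3 libraries gave 1 fall in control and 2 rises and 2 falls in KO cells, and main medians were 0.08 and 0.01.

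Proliferation markers had the lowest median of the 7 lists in both genotypes. Of 18 tested genes 0 rose and 2 fell in each genotype: Mcm5, a subunit of the replicative helicase, by log2 −0.42 ± 0.11 in control (edgeR adjusted p = 0.0368) and −0.40 ± 0.11 in KO cells (adjusted p = 0.0359), and Cdc20, an activator of the anaphase-promoting complex, by −0.40 ± 0.11 (adjusted p = 0.0387) and −0.44 ± 0.11 (adjusted p = 0.0215). The whole list lay between −0.42 and −0.06 in control and between −0.49 and −0.16 in KO cells, with medians of −0.25 and −0.29. With the block 9 fell in KO cells, where 1098 of all 14012 genes were called lower. Without both replicate 3 libraries 13 of 18 fell in control and 14 in KO cells, with medians of −0.33 and −0.41. In that fit 1411 of all 14012 genes were called lower in control and 1691 in KO cells.

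In both genotype comparisons and in the interaction, 0 genes of these 7 lists were called over all libraries. In some alternatives Id1 was called with TGFβ1, as given above, and so was Fas, a death receptor gene of the p53 list, in untreated cells. Fas held 12.7, 9.77 and 8.83 CPM in untreated control and 3.56, 5.28 and 3.33 CPM in untreated KO libraries, without overlap. KO minus control was log2 −1.36 ± 0.34 and did not pass (edgeR adjusted p = 0.164). It passed in 5 of 16 alternatives, among them the replicate block (adjusted p = 0.00978), the fit without both replicate 3 libraries (adjusted p = 0.00271) and DESeq2 (adjusted p = 0.0112), and adjusted p ran from 7.19e-09 to 0.58 over the 16. Without the filter on low counts Id2 was also called in untreated cells (adjusted p = 0.001) and Fas with TGFβ1 (adjusted p = 0.0492). Fas was named after its values were seen.

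**Figure D5:**
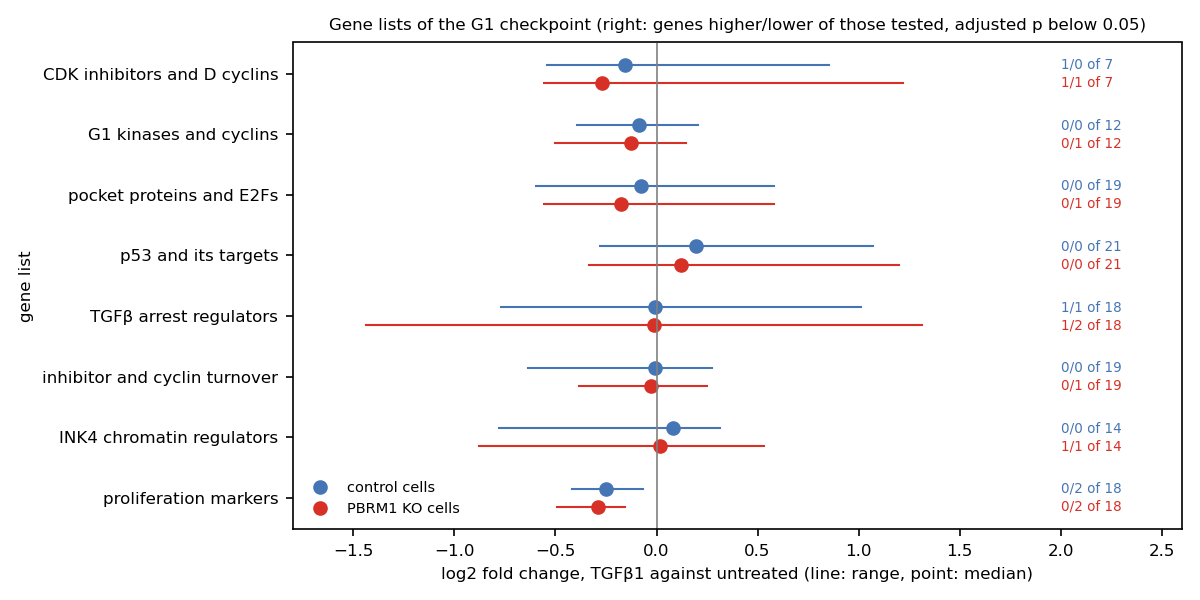
Range (line) and median (point) of the log2 fold change with TGFβ1 (x axis) for the 7 tested inhibitors and D cyclins and 7 gene lists of the G1 checkpoint (y axis), in control and KO cells, with the number higher and lower of those tested at the right. The proliferation markers lie wholly below 0, with medians of −0.25 and −0.29.

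For each of the 7 genes, the 3 genes closest in pattern were sought by Pearson's r of log2 CPM over the 12 libraries. The search covered 8139 tested genes with a mean of at least 10 CPM and a plain symbol, so without Gm numbers, Rik and similar clone names. The libraries fall into treated and untreated sets and share depth and replicate structure, so r is a description only. For Cdkn1a the closest were Dlgap4 (r = 0.985), Cd151 (r = 0.968) and Natd1 (r = 0.967). For Cdkn2c they were Syne3 (r = 0.973), Dlk2 (r = 0.971) and Bin1 (r = 0.971). For Ccnd1 they were Crim1 (r = 0.965), Nat10 (r = 0.962) and Rrp8 (r = 0.953). Ccnd2 was closest to Hmmr (r = 0.951), Nfic (r = 0.946) and Mcm6 (r = 0.944), and Ccnd3 to Gapdh (r = 0.943), Pcif1 (r = 0.941) and Nudt2 (r = 0.918). Cdkn1b was closest to Cc2d2a (r = 0.926), Rel (r = 0.917) and Trerf1 (r = 0.898). Cdkn2d had the weakest matches, with Ccdc51 (r = 0.836), S2bpcox16 (r = 0.820) and Cox16 (r = 0.819). The last pair are overlapping genes whose reads may have been shared.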

How the data were processed

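The deposited table gave estimated counts per gene and CPM for 12 libraries, per the file headers. Of its count cells 91.8% were whole, and fractional ones arise where a read fits several genes; Cdkn1a, Cdkn1b, Cdkn2c, Ccnd1, Ccnd2 and Ccnd3 had them in 1, 4, 7, 6, 3 and 5 libraries and Cdkn2d in 0. The authors' CPM equalled count over library total within 4.85e-06. Per the labels' protocols, reverse transcription was primed on poly(A), reads were single-end and stranded, and molecular identifiers removed duplicates. The submitters' processing notes name mm39, edgeR 3.38.4, Subread 2.1.1, featureCounts, SAMtools 1.22.1, STAR 2.7.11 and fastp 0.24.0; they give no settings or annotation release. The 92 spike-in entries held 0 counts.

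Counts were rounded, filtered with filterByExpr and scaled by TMM. With edgeR 4.0.16 in R 4.3.3, 1 mean per group was fitted to all 12 libraries (common biological coefficient of variation 12.5%) and tested by quasi-likelihood F, with Benjamini-Hochberg adjusted p below 0.05 over all 14012 genes. SE is the log2 fold change divided by the root of its F value. On simulated control comparisons of 14012 genes, 84% of 100 genes changed by log2 1 and 20% of 100 changed by log2 0.5 were recovered, with 8 false calls. Alternatives used RLE or total scaling, other filters, robust fits, DESeq2 1.42.0, limma 3.58.1 voom, unrounded counts, the 6 libraries of a comparison, a replicate block and each library left out. Counting limits are 3 counts of the total and cover counting error only.

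Members and lists were chosen with earlier results of these data known. Named genes are all members, up to 3 called genes per list, direction and comparison by p, locus neighbours, Pbrm1 and the 3 closest in pattern to each member. The labels do not say that a replicate number marks a shared day or that cultures were independent beyond the word biological, and p measures the spread between these samples. Deviations from group means of libraries with equal numbers had r = 0.201, 0.139 and 0.202 (TGFβ1 in PBRM1 KO cells) and r = 0.396, 0.416 and 0.726 (genotype with TGFβ1). All were over 0.1, the cut-off used here, so both comparisons were taken as paired from the data. The main fit nonetheless had no block and ignores this pairing, so calls with the replicate block are given beside it. With TGFβ1 both replicate 3 libraries stood apart in the same direction, so r for genotype with TGFβ1 cannot tell pairing by number from that. Calls with the block come from the same libraries and are no independent support. For TGFβ1 in control cells r was 0.258, −0.0835 and 0.137, and for untreated genotype 0.149, 0.069 and 0.125. Those comparisons were not taken as paired. The TGFβ1 axis took its direction and unit from the other genotype (mean of TGFβ1 replicates 1 and 2 less untreated mean) and its 0 from the library's own untreated mean; it was set with the position of replicate 3 known.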

Additional observations from a re-analysis of the deposited data

How the results depend on the processing

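The number of CDK inhibitors and D cyclins called with TGFβ1 in control cells (1 of 7) depended on the analysis. It was 0 with library totals only, with a minimum mean of 10 CPM, with the robust fit and with limma-voom (Cdkn1a adjusted p = 0.0722), 2 with no filter on low counts and 2 with DESeq2, 4 without both TGFβ1 replicate 3 libraries, and 0 to 3 over the fits that left out 1 library. With the replicate block it was 3 (Cdkn1a adjusted p = 0.0277, Cdkn2c 0.0197, Ccnd2 0.0191), although the replicate numbers did not pair these libraries by the check used. In PBRM1 KO cells the number (2 of 7) was 4 with no filter, 4 with the replicate block and 1 to 3 over the fits that left out 1 library. The number of all genes called moved between the fits as well. In control cells the share was 8.81% in the main fit, 17.1% with the block and 24.1% without both replicate 3 libraries. Over the fits that left out 1 library, 266 to 1477 of 14012 genes were called higher and 142 to 883 lower there. In PBRM1 KO cells 444 to 1723 were called higher and 165 to 1318 lower. For the 7 genes the block changed no call in the genotype comparisons or the interaction, where each alternative gave 0 of 7 called. Over all genes the block did change the genotype calls. They went from 6 higher and 33 lower to 39 and 105 in untreated cells, and from 10 and 28 to 49 and 109 with TGFβ1. The difference of the Ccnd1 share with TGFβ1 in PBRM1 KO cells (0.305 points, not called) changed sign to −0.573 points without both replicate 3 libraries, and ran from −0.573 to 1.21 points over the fits that left out 1 library, with −0.00863 and −0.286 points without untreated PBRM1 KO replicate 1 or 2. The cause was not tested. The differences of the D cyclins and Cdkn2c lie near log2 0.5 or below it, where simulated recovery was 20%, so true changes there may go uncalled. That 20% is a rough guide and no rate for these genes. The simulation gave every gene 1 common spread, drew changed genes over all abundances and changed fewer genes than were called here. At 0 to 2 reads a library the data cannot show a difference in Cdkn1c, Cdkn2a or Cdkn2b.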
